A study of Arabidopsis thaliana with 6 samples.

Results

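The genes described here are those of jasmonate synthesis, perception, repression, inactivation and response in Arabidopsis thaliana. They were taken by gene identifier from a fixed list of 39 genes, all of which were found among the 38194 loci counted, and all 39 passed the filter on low counts. RNA was sequenced from 12-day-old seedlings of a 35S:GR-TCP5 line, in which the transcription factor TCP5, joined to the glucocorticoid receptor, is driven by the constitutive 35S promoter. Seedlings of both groups carried the construct and were treated for 4 h. The DEX group received dexamethasone at 10 mM in 0.1% ethanol with 0.015% silwet-L77, a surfactant, and the mock group received the same solution without dexamethasone. The dose is given as labelled and is far higher than is usual for this compound, so its unit is in doubt. Dexamethasone lets such a fusion protein enter the nucleus. There were no plants without the construct, so an effect of dexamethasone alone cannot be told apart from that of TCP5, and ectopic expression from 35S is not the native pattern of the gene.

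Each group held 3 libraries. By the run dates in the labels, a first sequencing run held replicates 1 and 2 of each group, and a second run held replicate 3 of each. The labels do not say whether replicates came from separate cultures. The p-values therefore cover no more than the spread among these 6 libraries, which may be technical. Exon counts per library ranged from 33428836 to 76859163. TCP5 (AT5G60970) was at 233, 263 and 964 CPM, counts scaled to TMM-normalised library sizes, in DEX replicates 1 to 3. In the mock libraries it was at 323, 296 and 1177 CPM. It was thus present throughout, lower with DEX within each run and highest in the second run. Reads of the construct and of the native gene cannot be told apart in these counts. The labels say seedlings and name no organ. All 6 listed markers of green shoot were abundant in all libraries, with a summed level of 27029 to 36992 CPM. The 11 listed root markers summed to 0.17 to 1.56 CPM in the first run, where 5 to 8 of them were at 0, and to 45.4 CPM after DEX against 97.0 CPM after mock in the second run, where none was at 0. Of these, 4 could be tested, 2 were higher in the second run and none was called with DEX. Root markers, which whole seedlings should express, were thus at or near 0 in the first run. The 4 listed flower markers summed to at most 2.1 CPM. Less of a tissue and less RNA per cell cannot be told apart in such samples.

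Jasmonates are hormones made from a plastid fatty acid. Lipoxygenases (LOX), allene oxide synthase (AOS) and allene oxide cyclases (AOC) act in the plastid, OPR3, OPCL1 and ACX1 act in the peroxisome, and JAR1 joins the product to isoleucine. The conjugate binds the receptor COI1, which leads to the breakdown of JAZ repressors and frees the transcription factors MYC2, MYC3 and MYC4. JAZ genes and genes that inactivate the hormone are themselves induced by it, and wounding or touch raises the hormone within minutes to hours. In Arabidopsis, LOX2 has been reported as a direct target of TCP4, a CIN-class TCP factor like TCP5.

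Upstream sequence is shown for the pair of members that changed after DEX and for LOX2, because LOX2 is the reported target of a related TCP factor. Each line gives 300 bases before the gene start annotated by RefSeq on TAIR10.1, 5′ to 3′ on the gene's strand, with matches to TGGNCC on either strand or to CACGTG in capitals. TGGNCC resembles sites reported for TCP factors and CACGTG is the G-box bound by MYC factors, and the letter patterns do not overlap each other here.
CORI3, chr4:12310079-12310378, forward strand: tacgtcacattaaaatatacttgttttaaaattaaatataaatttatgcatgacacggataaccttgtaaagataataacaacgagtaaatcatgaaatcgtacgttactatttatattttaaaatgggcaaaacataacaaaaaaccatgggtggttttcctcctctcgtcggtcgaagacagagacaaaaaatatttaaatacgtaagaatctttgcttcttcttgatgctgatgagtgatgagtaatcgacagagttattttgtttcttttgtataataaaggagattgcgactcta
MYC4, chr4:9935686-9935985, reverse strand: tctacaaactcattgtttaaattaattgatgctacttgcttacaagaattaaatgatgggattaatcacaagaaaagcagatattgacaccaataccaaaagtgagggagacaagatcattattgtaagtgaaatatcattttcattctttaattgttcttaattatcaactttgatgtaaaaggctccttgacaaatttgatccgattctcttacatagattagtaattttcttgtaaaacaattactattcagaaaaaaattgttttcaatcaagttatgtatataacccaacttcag
LOX2, chr3:16524945-16525244, forward strand: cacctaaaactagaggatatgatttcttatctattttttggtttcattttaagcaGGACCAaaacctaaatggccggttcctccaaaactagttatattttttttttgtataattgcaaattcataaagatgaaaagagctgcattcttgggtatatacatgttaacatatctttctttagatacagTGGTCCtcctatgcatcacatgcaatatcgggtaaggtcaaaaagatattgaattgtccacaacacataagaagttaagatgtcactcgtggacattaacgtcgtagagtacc
The LOX2 window held 2 matches to TGGNCC, at 245 and 113 bases before the gene start. CORI3 and MYC4 held no match to either pattern, which says only that these letters are not in this window. Of the 39 members, 13 (33.3%) held TGGNCC within 300 bases, against 24.6% of 27443 protein-coding genes. CACGTG was found in 6 members (15.4%) and in 7.09% of protein-coding genes. A match is a description of the letters and not evidence of binding.

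The comparison of DEX with mock asked whether these genes changed within 4 h of activating the fusion protein. CORI3 and MYC4 fell, no member rose and 37 members did not pass (edgeR quasi-likelihood test with sequencing run as a term, Benjamini-Hochberg adjusted p under 0.05 over all genes). Across all 21934 genes tested, 4.67% were called, 3.58% lower and 1.09% higher with DEX, so 2 of 39 is near the background. The call over all genes, 1024 in number, depended on the fit: 571 were called with the replicate block and none without the run term. Leaving out DEX replicate 2 gave 304 calls, mock replicate 1 gave 476 and mock replicate 2 gave 279, and there were 613 and 630 without the second-run DEX or mock library. At an unadjusted p under 0.05 there were 11 members, 9 of them lower with DEX, and 19% of all genes. The log2 fold change was below 0 for 32 of 39 members, against 49.3% of all genes. The median was −0.20 for the members and 0.00 for all genes. Members measured in the same 6 libraries are not independent of each other. In the second-run pair 21 of 39 were lower with DEX, against 49.9% of all genes, with a median difference of −0.04 for the members. Mock replicate 2 was the highest first-run library for 28 of the 39 members and for 23% of all genes.

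**Figure D1:**
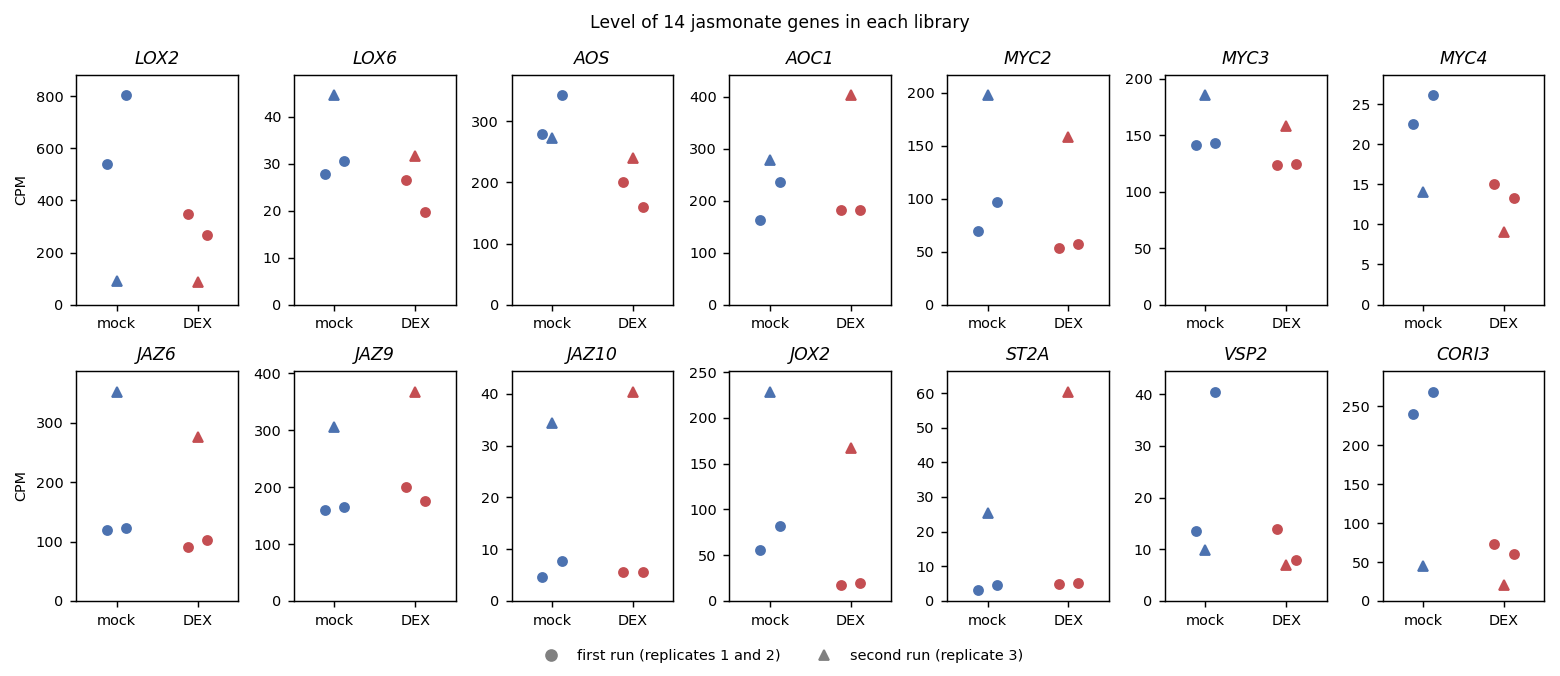
Level in CPM (y axis, from 0) of the 14 members described in full, in mock (blue) and DEX (red) libraries; circles are the 2 first-run libraries of each group and triangles the second-run library. CORI3 and MYC4 were lower with DEX within both runs, as were LOX2, AOS, LOX6, MYC2, MYC3, JAZ6 and JOX2. Most of the 14 genes, CORI3 among them, differed more between runs than between treatments.

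CORI3 (AT4G23600), a cystine lyase induced by the jasmonate mimic coronatine, showed the clearest fall. Its level was 73.6 and 60.0 CPM after DEX against 240 and 269 CPM after mock in the first run, and 20.9 CPM after DEX against 44.7 CPM after mock in the second. The DEX libraries lay below the mock libraries within each run, although the second-run mock library lay below both first-run DEX libraries. Over all libraries of a group the mean ± SD (n = 3) was 51.5 ± 27.4 CPM for DEX and 184 ± 122 CPM for mock. The log2 fold change was −1.66 ± 0.19 (SE; edgeR adjusted p = 0.00758), a level 3.17-fold lower with DEX. The call held in the first run alone (log2 fold change −1.92, adjusted p = 0.00327), and the single second-run pair differed by −1.10 on the log2 scale. Reads in the introns of CORI3, which the list rule did not use, numbered 46, 47 and 5 in DEX replicates 1 to 3 and 209, 238 and 17 in the mock libraries. On intron counts its log2 fold change was −1.98 ± 0.24 (edgeR adjusted p = 0.00132). RefSeq gives CORI3 an exonic length of 2310 bases, against 1874 deposited with the counts. Some reads counted as intron may therefore lie in sequence that RefSeq annotates as exon.

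MYC4 (AT4G17880), a transcription factor that acts with MYC2 and MYC3, was at 15.1 and 13.3 CPM after DEX against 22.5 and 26.1 CPM after mock in the first run. In the second run it was at 9.0 CPM after DEX against 14.0 CPM after mock. It too was lower with DEX within each run, with means of 12.5 ± 3.13 and 20.9 ± 6.22 CPM (SD, n = 3) for DEX and mock. The log2 fold change was −0.73 ± 0.11 (edgeR adjusted p = 0.0111), and it was −0.77 in the first run alone and −0.63 in the second-run pair. The call was lost without DEX replicate 2 (−0.66, adjusted p = 0.0609) and without mock replicate 2 (−0.65, adjusted p = 0.0635), with a fold change close to that of the full fit. Without the run term neither MYC4 nor CORI3 passed (adjusted p = 0.999 for both). With the replicate number as a block both passed, at adjusted p = 0.0287 for MYC4 and 0.0234 for CORI3.

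The other perception genes lay lower with DEX in the same way but did not pass. MYC2 (AT1G32640), the main jasmonate transcription factor, was at 53.0, 57.4 and 158 CPM in DEX replicates 1 to 3 and at 69.1, 96.8 and 198 CPM in the mock libraries. Its log2 fold change was −0.50 ± 0.14 (edgeR adjusted p = 0.0877), and it overlaps AT1G32630, with which it can share reads. MYC3 (AT5G46760) was at 124, 124 and 158 CPM after DEX against 141, 143 and 185 CPM after mock, a log2 fold change of −0.21 ± 0.08 (adjusted p = 0.224). For COI1, which overlaps AT2G39930, it was −0.20 ± 0.09 (adjusted p = 0.273). All 4 genes of this role had first-run DEX libraries below both first-run mock libraries and a lower second-run DEX library. Of all 39 members 11 did so, and of all genes tested 17.8%. In the first run taken by itself, both DEX libraries lay below both mock libraries for 20 members and for 24.4% of all genes. The opposite pattern, higher with DEX in this way, was shown by 2 members, JAZ9 and ST2A, and by 14.7% of all genes. Per kilobase of transcript, MYC3 was the most abundant of the MYC genes in every library, with 52.2% to 68.1% of their summed level, and MYC4 the least, with 3.37% to 11.5%.

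Of the 14 synthesis genes none passed, and 12 had a log2 fold change below 0 with a median of −0.12. LOX2 (AT3G45140), whose upstream sequence is printed above, was at 350 and 267 CPM after DEX against 540 and 804 CPM after mock in the first run, where the groups did not overlap. In the second run it was at 85.0 CPM after DEX against 91.5 CPM after mock, much lower in both groups. Its log2 fold change was −0.79 ± 0.27 over both runs (edgeR adjusted p = 0.199), −1.11 for the first run by itself (adjusted p = 0.0558) and −0.11 in the second-run pair. Intron counts of LOX2 gave −1.28 ± 0.33 on the log2 scale (edgeR adjusted p = 0.0860). The exonic length of LOX2 also differs, at 3252 bases in RefSeq against 3186 deposited.

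AOS (AT5G42650), the single allene oxide synthase, was at 200, 161 and 241 CPM in DEX replicates 1 to 3 and at 279, 343 and 272 CPM in the mock libraries. All DEX libraries lay below all mock libraries, with means of 200 ± 40.1 and 298 ± 38.8 CPM (SD, n = 3). The log2 fold change was −0.58 ± 0.16 (edgeR adjusted p = 0.0955), and in the first run alone it was −0.78 (adjusted p = 0.0503). LOX6 (AT1G67560), a lipoxygenase of the early wound response, was at 26.6, 19.8 and 31.7 CPM after DEX against 27.8, 30.7 and 44.6 CPM after mock. Its fold change on the log2 scale was −0.39 ± 0.12 (adjusted p = 0.133).

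AOC1 (AT3G25760) had the highest mean level of the synthesis genes per kilobase, at 202 CPM per kilobase over the 6 libraries. LOX2 and AOC2 were higher than AOC1 per kilobase in both first-run mock libraries, AOC2 also in DEX replicate 2 and AOS slightly in mock replicate 1. AOC1 was at 182, 182 and 402 CPM after DEX and at 162, 235 and 278 CPM after mock. The groups thus overlapped in the first run and the second-run DEX library was the highest. The fitted log2 fold change of AOC1 was 0.09 ± 0.18 (edgeR adjusted p = 0.842), and it was −0.12 in the first run alone. AOC1, AOC2 and AOC3 are close copies of each other, so that counting could split their reads, and their values are uncertain to that extent. The remaining synthesis genes had log2 fold changes between −0.25 for AOC2 and 0.09 for JAR1, with adjusted p of 0.366 or more. JMT, which methylates jasmonate, was the lowest of them in level, at 0.32 to 2.92 CPM.

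**Figure D2:**
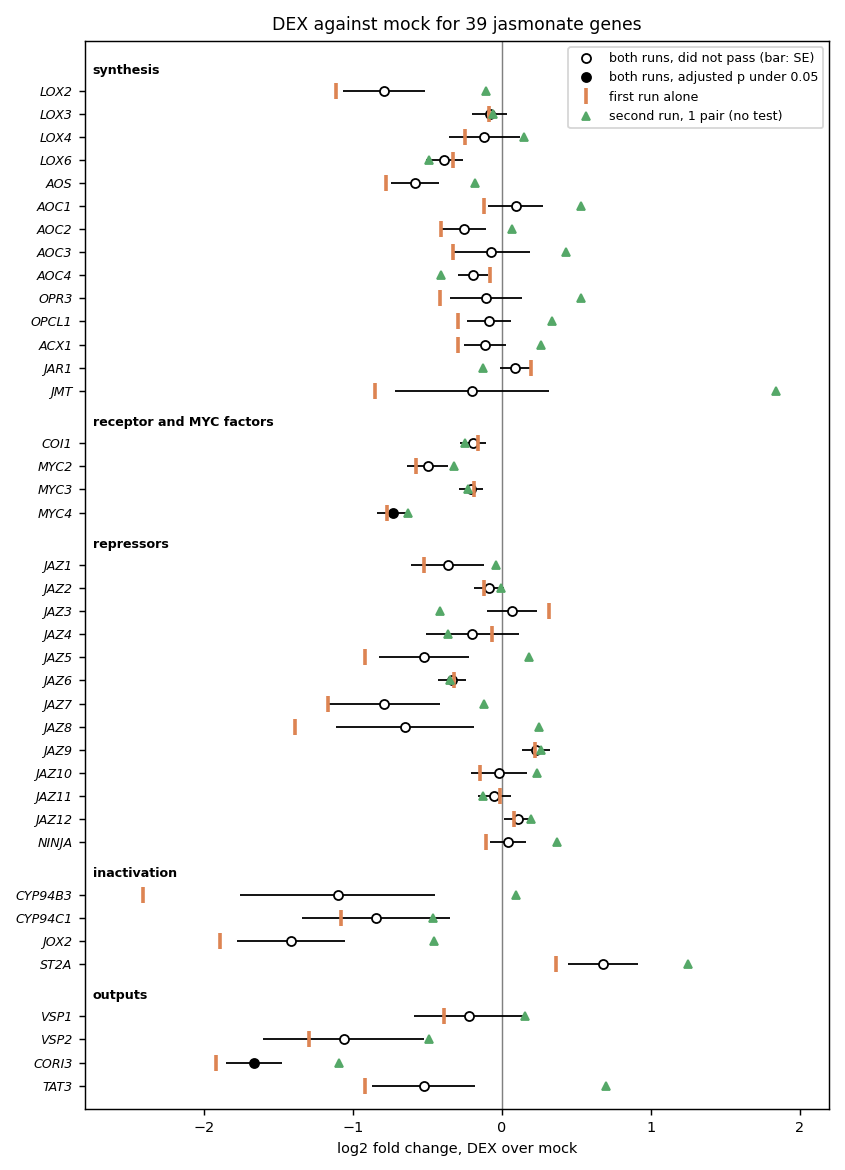
Log2 fold change of DEX over mock (x axis) for the 39 members by role: circles with SE bars are the fit to both runs (filled where adjusted p was under 0.05), orange bars the first run alone and green triangles the single second-run pair, which has no test. CORI3 and MYC4 are the filled circles, and most first-run values lie left of 0 while second-run values lie on both sides.

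None of the 13 repressor genes passed, and their median log2 fold change was −0.09. JAZ6 (AT1G72450) was at 90.1, 102 and 276 CPM in DEX replicates 1 to 3 and at 119, 123 and 352 CPM after mock. It was lower with DEX within both runs, at −0.34 ± 0.09 on the log2 scale (edgeR adjusted p = 0.0870). JAZ9 (AT1G70700), the most abundant JAZ gene per kilobase on average though not in the second-run mock library, was at 201, 176 and 367 CPM after DEX and at 160, 165 and 306 CPM after mock. It was higher with DEX within both runs, at 0.23 ± 0.10 on the log2 scale (adjusted p = 0.236).

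JAZ10 (AT5G13220), a widely used reporter of the wound response, was at 5.56, 5.53 and 40.4 CPM after DEX against 4.70, 7.67 and 34.3 CPM after mock. Its groups overlapped in the first run, its log2 fold change was −0.02 ± 0.19 (edgeR adjusted p = 0.971) but 0.028 when scaled to library totals alone, and it overlaps AT5G02045. JAZ5, JAZ7 and JAZ8, which respond quickly to the hormone, had log2 fold changes of −0.52 ± 0.30, −0.79 ± 0.37 and −0.65 ± 0.47, with adjusted p of 0.327 or more. The other JAZ genes and NINJA, the adaptor that joins JAZ proteins to the corepressor TOPLESS, lay between −0.37 for JAZ1 and 0.11 for JAZ12, which overlaps AT5G20910 and AT5G03235.

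Of the 4 inactivation genes none passed. JOX2 (AT5G05600), an oxidase that hydroxylates jasmonate, was at 17.7 and 19.1 CPM after DEX against 55.3 and 82.1 CPM after mock in the first run. In the second run it was at 167 CPM after DEX against 228 CPM after mock. The DEX difference in the fit to both runs was −1.42 ± 0.36 (edgeR adjusted p = 0.121). In the first run alone it was −1.89, and JOX2 was called there (adjusted p = 0.00862), as the third member beside CORI3 and MYC4. In that run 3.18% of all genes were called, and 2.43% were called lower.

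ST2A (AT5G07010), a sulfotransferase of hydroxylated jasmonate, was at 5.0, 5.05 and 60.3 CPM in DEX replicates 1 to 3 and at 3.12, 4.74 and 25.4 CPM after mock. It was higher with DEX within both runs, and its log2 fold change was 0.68 ± 0.24 (edgeR adjusted p = 0.195). CYP94B3 and CYP94C1, which oxidise the active conjugate, had log2 fold changes of −1.10 ± 0.65 and −0.85 ± 0.50 (adjusted p = 0.455 and 0.460). CYP94B3 was at 0.24 and 0.09 CPM after DEX against 0.60 and 1.15 CPM after mock in the first run, and at 15.2 and 14.2 CPM in the second.

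Among the outputs only CORI3 passed. VSP2 (AT5G24770), a vegetative storage protein that accumulates in leaves after wounding, was at 13.8, 8.02 and 7.05 CPM after DEX against 13.6, 40.5 and 9.92 CPM after mock. Mock replicate 2 stood above the other libraries, which lay between 7.05 and 13.8 CPM. The log2 fold change was −1.06 ± 0.54 (edgeR adjusted p = 0.405), and it was −0.38 without that library. VSP1, a close copy of VSP2, had one of −0.22 ± 0.38 (adjusted p = 0.821) and the tyrosine aminotransferase gene TAT3 one of −0.53 ± 0.35 (adjusted p = 0.493).

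Mock replicate 2 was the highest of the 4 first-run libraries for 28 of 39 members, and for 23% of all genes tested. Those 28 included all 4 outputs and 10 of the 14 synthesis genes. Over the 7 listed wound and touch genes outside the jasmonate pathway, it was the highest for 1, and their summed level was 539 CPM there against 500 to 929 CPM in the other first-run libraries. Without mock replicate 2, CORI3 and ST2A were called and MYC4 was not. Without it the log2 fold change over both runs was −0.51 for LOX2, −0.43 for AOS, −0.32 for MYC2, −1.11 for JOX2 and −1.54 for CORI3. Each was closer to 0 than with it. Leaving out the higher first-run mock library lowers the first-run mock mean, so that direction was set in advance. LOX2, AOS, MYC2 and JOX2 were not called in the fit to both runs, with or without it. JAZ10 turned from −0.02 to 0.24.

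Among 67 other genes of the pathway, 57 were tested, 3 fell, none rose and 54 did not pass, with a median log2 fold change of −0.09. That count is near the background of 4.67% called and 3.58% called lower over all genes. OPR2 (AT1G76690), a relative of OPR3, was at 25.5, 31.0 and 283 CPM in DEX replicates 1 to 3 and at 58.2, 51.2 and 389 CPM after mock. The DEX difference of OPR2 was −0.79 ± 0.14 on the log2 scale (edgeR adjusted p = 0.0195). OPR2 overlaps AT1G76700 and its close copy OPR1, which was at −0.80 ± 0.19 (edgeR adjusted p = 0.0570). CYP94B1 (AT5G63450), which also oxidises the conjugate, was at 0.86, 0.78 and 5.27 CPM after DEX against 3.06, 4.42 and 8.25 CPM after mock. Its log2 fold change was −1.64 ± 0.35 (adjusted p = 0.0476), and with the replicate block the adjusted p was 0.0918. JR1 (AT3G16470), a jasmonate-responsive lectin gene, was at 192, 144 and 192 CPM after DEX against 253, 361 and 293 CPM after mock. All its DEX libraries lay below all its mock libraries, and the fit gave −0.78 ± 0.17 on the log2 scale (adjusted p = 0.0465; 0.0986 with the replicate block), and it overlaps AT3G16460.

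The difference between DEX and mock was next set side by side in the runs. In the first run alone 34 of 39 members had a log2 fold change below 0, against 48.1% of all genes, and their median was −0.33. In the second-run pair 21 of 39 members were lower with DEX, against 49.9% of all genes, and the median difference was −0.04. The interaction of run and treatment, which tests whether the DEX difference changed between runs, was positive for 30 of 39 members and for 53.3% of all genes. No member and no gene, 0% of those tested, passed it with edgeR (lowest adjusted p among members 0.648), with 1 pair in the second run. At an unadjusted p under 0.05 there were 13 members, 12 of them positive, against 6.55% of all genes and 3.57% that were positive. The first run and the second-run pair pointed in opposite directions, without overlap in the first run, for 11 members and 13.1% of all genes. limma-voom called 0 genes. DESeq2 called 47 genes, JOX2 alone among the members (log2 interaction 1.43, adjusted p = 0.0398).

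The second run differed from the first run far more than DEX from mock. Of 39 members 27 were higher in the second run, 4 were lower and 8 did not pass (edgeR test of the run term). Of all genes 55.5% differed, 27.9% higher and 27.6% lower. More than 4-fold higher were 13 members, against 6.23% of all genes. These included all 4 inactivation genes and 6 of the 13 repressors. Sampled organs, handling, plants and sequencing date cannot be told apart in this comparison.

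**Figure D3:**
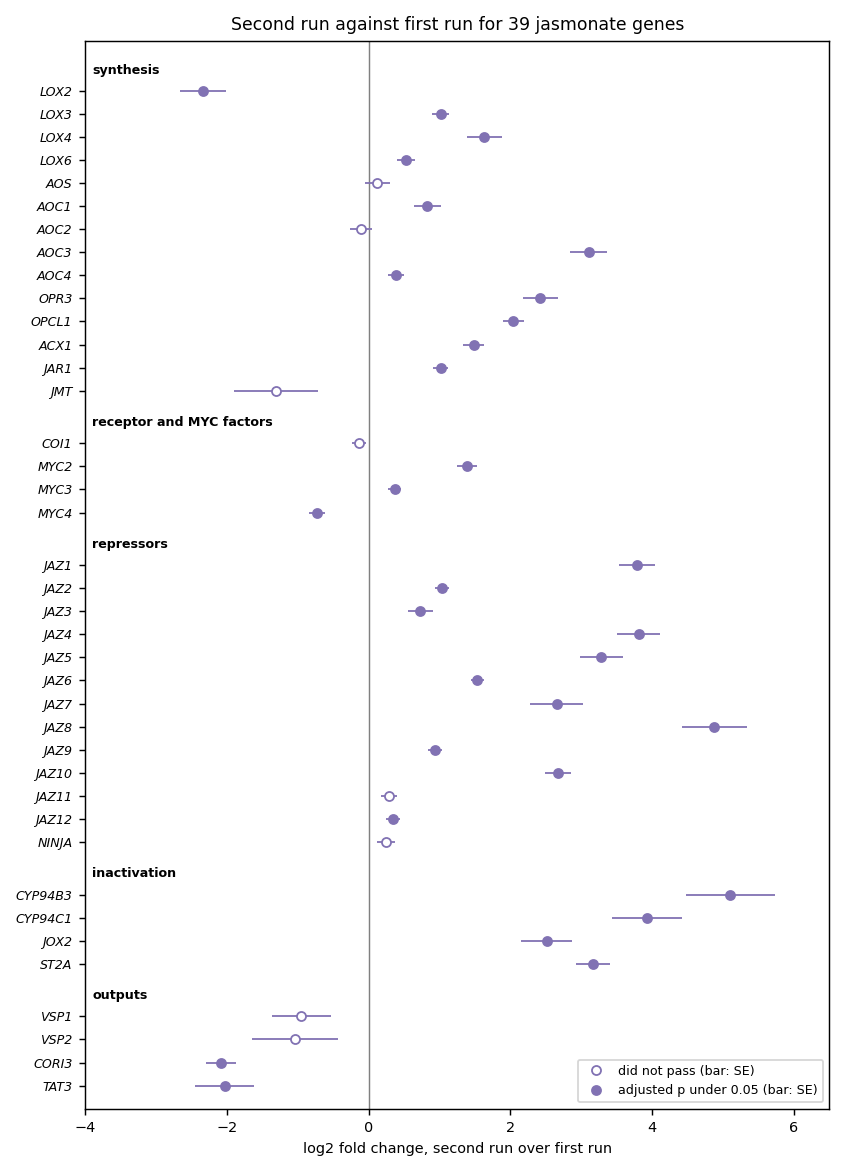
Log2 fold change of the second run over the first run (x axis) with SE bars for the 39 members by role; filled circles passed at adjusted p under 0.05. JAZ and inactivation genes lie to the right, up to 5.10 for CYP94B3, and LOX2, MYC4, CORI3 and TAT3 are the filled circles left of 0.

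JAZ8 was at 0.67 and 0.72 CPM after DEX against 1.2 and 2.47 CPM after mock in the first run, and at 37.1 and 31.2 CPM in the second. Its log2 fold change between runs was 4.88 ± 0.46 (edgeR adjusted p = 0.000691). JAZ1 was 13.8-fold higher, JAZ4 14.0-fold, CYP94C1 15.2-fold and CYP94B3 34.4-fold. In the synthesis role AOC3 was 8.59-fold higher, OPR3 5.37-fold and OPCL1 4.12-fold, whereas AOS (adjusted p = 0.564) and AOC2 (adjusted p = 0.602) did not pass.

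Another set of members went the other way. LOX2 had a log2 fold change between runs of −2.34 ± 0.33 (edgeR adjusted p = 0.00169), CORI3 of −2.08 ± 0.22, TAT3 of −2.03 ± 0.41 and MYC4 of −0.73 ± 0.12. VSP1 and VSP2 had −0.95 ± 0.42 and −1.03 ± 0.61 and did not pass. Both genes that fell after DEX were thus also lower in the second run. The 7 wound and touch genes outside the pathway were all higher in the second run, where they summed to 3449 CPM after DEX against 3206 CPM after mock, against 500 to 929 CPM in the first run. TCH4, a touch-induced cell wall gene, was 8.45-fold higher, while its log2 fold change between DEX and mock was 0.00 ± 0.09. The summed level of the root markers given above was higher in the second run as well. The part of either list in the values of the jasmonate genes was not tested.

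The make-up of gene families also differed between the runs, which is given as a description with no test. Of the summed level per kilobase of the 4 lipoxygenase genes, LOX2 held 76.1% to 88.9% in the first-run libraries, and 30.7% with DEX and 31.9% with mock in the second. LOX4 held 4.58% to 11.5% in the first run, and 40.5% and 35.2% in the second, where it was the most abundant of the 4. The summed level of the 12 JAZ genes was 257 to 290 CPM per kilobase in the first run and 799 and 798 CPM per kilobase in the second. JAZ1 held 3.60% to 7.50% of it in the first run, and 25.3% with DEX and 26.0% with mock in the second. JAZ9 held 32.0% to 42.2%, and then 25.9% and 21.6%. Within the first run JAZ9 held 42.2% and 37.7% in the DEX libraries, and 35.1% and 32.0% in the mock libraries.

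**Figure D4:**
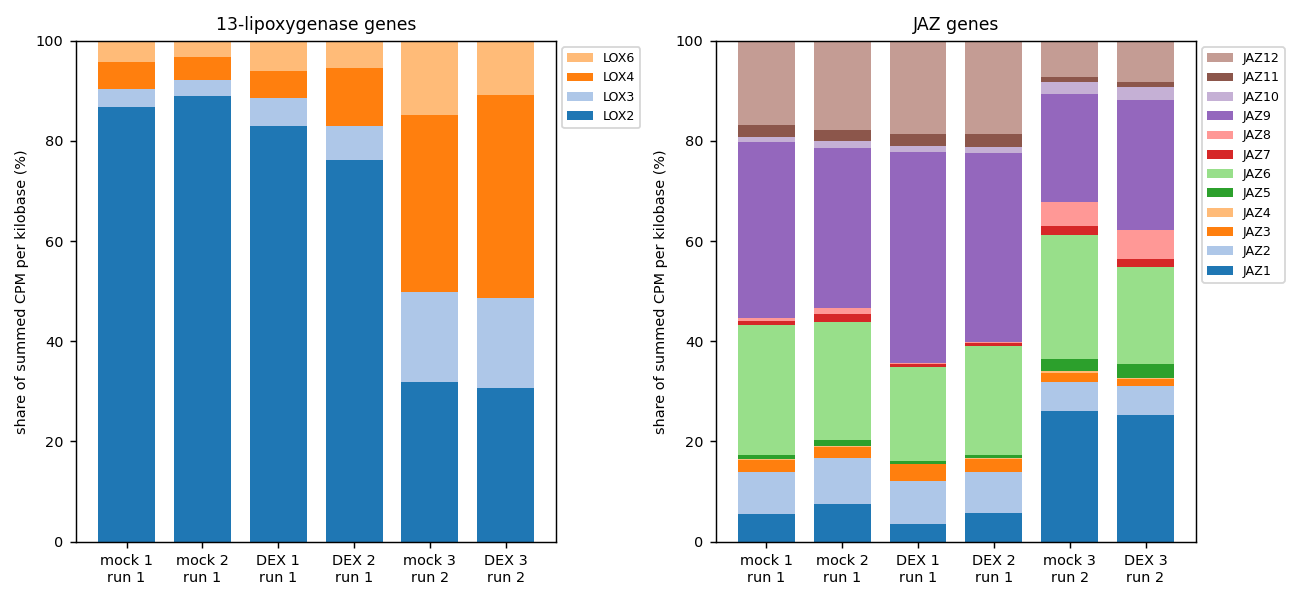
Share of the summed CPM per kilobase (y axis, percent) held by each of 4 lipoxygenase genes (left) and 12 JAZ genes (right) in each library, first-run libraries at the left of each panel. LOX2 holds at least 76.1% in the first run and 30.7% and 31.9% in the second, and JAZ1 holds at most 7.50% and then at least 25.3%.

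Intron counts from the same libraries gave another readout, in which 25 of 39 members could be tested. Introns held 2.07% to 2.57% of the counts per library. CORI3 was the 1 member called, and 0.939% of all 12989 loci tested were called, with 0.616% called lower. MYC4 and AOS had no intron counts.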

How the data were processed

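Sequencing libraries came from a TruSeq RNA v2 kit without strand marking (labels' protocols); plants grew at 22 °C under 14 h of light. Per the file headers, the authors deposited raw read counts per gene, one for exons, one for introns and one for both, and a gene length as another value. The submitters' processing notes name STAR and DESeq2; what counted the reads, and against which build, is not given in the sources used here. Even numbers predominated (16.6% to 25.8% of exon counts from 1 to 20 were odd), so counts may overstate independent fragments.

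The main test used exon counts and edgeR 4.0.16 under R 4.3.3 (TMM, filterByExpr with a minimum count of 10 and total of 15, robust quasi-likelihood fit, terms for run and treatment), adjusted over all genes at 0.05. CPM used TMM library sizes. Single-pair differences used a prior count of 2. Errors on log2 values are SE, and fold changes are DEX over mock. limma 3.58.1 and DESeq2 1.42.0 were alternatives. Names, overlaps and upstream sequence came from TAIR10.1 RefSeq, which matched all 39 members; for 21 of them its exonic length was the one deposited. DEX and mock libraries with the same number were correlated about the group means (across genes 0.627, 0.607 and 0.879). The run difference alone can give such values. No correlation was computed for pairs with different numbers, so these values do not show a pairing by number. In the first run, chi-square per degree of freedom was 159 and 161 for DEX and mock libraries with the same number. It was lower, at 115 and 112, for those with different numbers. The replicate block is given as an alternative fit, and the labels show only a pairing by run. No library duplicated another (lowest chi-square per degree of freedom 28.5).

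The members and gene lists were chosen with earlier results of these data known. Full values are given for members called, the 10 with the smallest p, the most abundant per kilobase in each role, and MYC2, LOX2, JAZ10 and VSP2. Members named outside it were chosen after their values were seen.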

Additional observations from a re-analysis of the deposited data

Results flagged for a closer look

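For 11 of 39 members, and 13.1% of all genes tested, the first-run DEX libraries both lay on one side of both first-run mock libraries while the second-run pair pointed the other way. The difference itself was tested as the interaction of run and treatment, and no member passed after adjustment with edgeR (adjusted p 0.648 to 0.809 for these 11). The log2 interaction, second-run difference minus first-run difference, was positive for 9 of them. These 11 were chosen by opposite directions in the same values, so its sign was set by that choice. A positive value restates that the first-run DEX libraries were the lower ones. In the synthesis role it was 0.49 for AOC2, 0.96 for OPR3, 0.64 for OPCL1, 0.56 for ACX1 and 2.80 for JMT, and it was −0.31 for JAR1. JMT was at 1.59 and 1.31 CPM after DEX against 2.92 and 2.33 CPM after mock in the first run, and at 1.24 and 0.32 CPM in the second. Among repressors the log2 interaction was 1.11 for JAZ5, 1.65 for JAZ8 and −0.72 for JAZ3. For CYP94B3, which inactivates the hormone, it was 2.53, and for the output TAT3 it was 1.64.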

How the results depend on the processing

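The count of changed genes was 1024, and it was 0 without the run term, 571 with the replicate block, 2065 with DESeq2 and 279 to 1132 with 1 library left out. The count of members called was 2, and it was 0 without the run term, 7 with DESeq2 (AOS, JAZ6, JOX2, LOX2 and MYC2 beside CORI3 and MYC4) and 1 to 3 with 1 library left out. JOX2 was also called without robust estimation of the spread (adjusted p = 0.0477), in the first run alone and without either second-run library. LOX6 was called without DEX replicate 1 and ST2A without mock replicate 2. CORI3 was called in 18 of 19 alternatives and MYC4 in 16. With the run term, a lone second-run library gives no DEX difference. The fits without either second-run library therefore nearly repeat the first run alone, and these alternatives are not separate support. The log2 fold change ran from −1.93 to −1.49 for CORI3 and from −0.78 to −0.65 for MYC4. The replicate block changed the call of no member. JAZ10, close to 0, turned sign with library totals alone (0.028), without the run term (0.14), with the replicate block (0.0056), with limma-voom (0.052) and with 1 library left out (−0.16 to 0.24). AOC1 turned sign in the first run alone (−0.12) and in the nearly identical fits without either second-run library. With 1 library left out it ran from −0.13 to 0.33. The cause was not tested. No other member described in full turned sign. The interaction called 0 members, 1 with DESeq2 and 0 to 0 with 1 first-run library left out. Members differing between runs numbered 31, and 27 to 32 in the alternatives (27 to 31 with 1 library left out). On intron counts 1 member was called, 3 without a filter (CORI3, LOX2 and JOX2), 1 with the replicate block and 1 to 3 with 1 library left out. The second run has 1 library per group, so its DEX difference has no test of its own.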

Other observations

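Jasmonate acts together with ethylene through the factors ERF1 and ORA59. Of the genes listed for this branch, ERF1, ORA59, PDF1.2 and CHI-B were not called after DEX, where 4.67% of all genes were. HEL, PDF1.2b and PDF1.2c, listed with them, were not among the genes called either. ORA59 was at 3.46, 3.16 and 37.7 CPM in DEX replicates 1 to 3 and at 4.75, 5.16 and 44.3 CPM with mock, lower with DEX within both runs (log2 fold change −0.45 ± 0.11, edgeR adjusted p = 0.0652). Their defensin target PDF1.2 was at 1.76, 2.30 and 3.55 CPM after DEX, against 0.90, 1.60 and 2.77 CPM after mock (0.59 ± 0.27, adjusted p = 0.298). Counting could split reads between PDF1.2 and its relatives PDF1.2b and PDF1.2c, so its values are uncertain to that extent. Between runs ORA59 was 10.1-fold and ERF1 8.41-fold higher in the second, and the basic chitinase gene CHI-B was 102-fold higher. CHI-B lay at 0.16 to 0.34 CPM in the first run and at 14.8 CPM after DEX against 35.8 CPM after mock in the second. LOX1, a lipoxygenase of another oxylipin branch, was 34.7-fold higher there, at 224 CPM after DEX against 565 CPM after mock. The summed root markers were also lower in the second-run DEX library than in its mock library, and their part in these values was not tested.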
